A study of Arabidopsis thaliana with 18 samples.

Results

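The 46 nuclear genes described here encode the proteins of the photosynthetic membrane and of Rubisco: 14 LHCB and 6 LHCA antenna genes, 12 PSA subunits of photosystem I, 10 PSB subunits of photosystem II and 4 RBCS genes for the small subunit of Rubisco. They were taken by gene identifier from the count tables, out of 26954 nuclear genes with a count in the series, and 45 of the 46 had a count in at least 1 library. The study sequenced polyadenylated RNA from seed coats and endosperms dissected together from developing *Arabidopsis thaliana* seeds of the Col ecotype. It asked how a cold spell during seed development and the transcription factor MYB107 change gene expression in this tissue. Plants of WT and of the insertion mutant *myb107-2* were sampled 11 days after pollination (11 DAP) at 22 °C and 48 h after transfer of plants of that age to cold, called 11 DAP+Cold. WT was also sampled after 6 h of cold and, without any cold, at 13 DAP, which gives 6 groups of 3 libraries. The labels give 13 °C for the cold, with the light and photoperiod of the warm plants, and the text of the paper gives a lower temperature. Each sample pooled siliques from several plants, *myb107-2* is a single mutant allele, and the mutant was not sampled at 6 h or at 13 DAP. Nothing in the labels says that the 3 libraries of a group came from separate cultivations, so p-values measure the spread between these samples, which may be partly technical.

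Light is absorbed by chlorophyll held on antenna proteins, LHCB mostly on photosystem II and LHCA on photosystem I, and passed to the reaction centres, whose core proteins are encoded in the plastid and whose outer subunits are encoded in the nucleus. Rubisco fixes carbon dioxide and joins plastid-encoded large subunits with nuclear-encoded small subunits. Developing *Arabidopsis* seeds are green for a time and lose their chlorophyll as they mature, and transcripts of these genes are known to respond to light, the circadian clock, cold and plastid signals.

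After 48 h of cold in WT, the LHCB2 genes were called lower than at 11 DAP, and LHCB1.1 and LHCB1.3 were not. These 5 genes were picked for that contrast. In *myb107-2* after 48 h of cold the same genes were called lower and the same were not. After 6 h of cold in WT, LHCB2.1 and LHCB2.2 were called lower, and LHCB2.3, LHCB1.1 and LHCB1.3 were not. At 13 DAP all 5 were called lower than at 11 DAP. LHCB2.1, like LHCB1.1 and LHCB1.3, was called higher after 48 h of cold than at 13 DAP. The 250 bases before the annotated starts of these genes are shown, read from the TAIR10.1 genome with RefSeq gene models. LHCB2.1 (AT2G05100, chr2:1824481-1824730, minus strand), LHCB2.2 (AT2G05070, chr2:1800473-1800722, minus), LHCB2.3 (AT3G27690, chr3:10255656-10255905, plus), LHCB1.1 (AT1G29920, chr1:10475970-10476219, minus) and LHCB1.3 (AT1G29930, chr1:10477635-10477884, plus) are written on the strand of the gene, 5′ to 3′. Capitals mark matches on either strand to 5 motifs named in plant promoter work: the I-box GATAAG, the G-box CACGTG, the CCAAT-box CCAAT, the evening element AAATATCT and the CCA1-type site AAAAATCT, none of which contains another.
LHCB2.1: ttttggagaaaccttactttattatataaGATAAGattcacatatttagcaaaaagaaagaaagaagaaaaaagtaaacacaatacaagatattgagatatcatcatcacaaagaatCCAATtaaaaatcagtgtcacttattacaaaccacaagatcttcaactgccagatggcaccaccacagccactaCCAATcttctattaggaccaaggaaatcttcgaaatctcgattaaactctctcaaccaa
LHCB2.2: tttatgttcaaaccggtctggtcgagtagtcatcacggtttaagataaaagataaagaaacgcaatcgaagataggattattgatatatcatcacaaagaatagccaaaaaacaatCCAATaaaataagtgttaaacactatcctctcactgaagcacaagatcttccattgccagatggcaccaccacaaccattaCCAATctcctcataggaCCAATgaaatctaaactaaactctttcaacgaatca
LHCB2.3: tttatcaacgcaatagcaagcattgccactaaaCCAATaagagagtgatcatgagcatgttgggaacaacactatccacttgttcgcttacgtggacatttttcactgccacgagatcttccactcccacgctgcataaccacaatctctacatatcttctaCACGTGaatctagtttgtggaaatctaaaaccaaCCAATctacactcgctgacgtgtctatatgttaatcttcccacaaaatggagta
LHCB1.1: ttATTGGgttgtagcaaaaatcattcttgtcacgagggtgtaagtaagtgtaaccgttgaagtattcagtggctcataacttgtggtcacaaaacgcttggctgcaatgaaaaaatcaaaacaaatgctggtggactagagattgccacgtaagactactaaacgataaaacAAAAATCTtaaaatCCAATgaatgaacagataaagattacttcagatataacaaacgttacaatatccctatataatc
LHCB1.3: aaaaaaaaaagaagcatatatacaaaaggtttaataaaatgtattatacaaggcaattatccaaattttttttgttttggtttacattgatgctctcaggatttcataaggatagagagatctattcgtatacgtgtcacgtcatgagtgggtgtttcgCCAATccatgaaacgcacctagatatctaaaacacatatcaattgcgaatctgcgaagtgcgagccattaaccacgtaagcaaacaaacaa

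The CCAAT-box was present in all 5 of these windows and in 13 of the 14 LHCB windows. Over the 46 members it was found in 63.04% of windows, beside 46.0% of the 27443 windows of the same length before annotated genes. The I-box was found in 21.7% of member windows and 12.3% of all windows, the G-box in 19.6% and 6.49%, the CCA1-type site in 10.9% and 6.69%, and the evening element in 2.17% and 4.79%. Among the windows shown, the I-box occurred before LHCB2.1, the G-box before LHCB2.3 and the CCA1-type site before LHCB1.1. These matches describe letters in a fixed window and were not tested for a role.

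Libraries held between 43.1 M and 84.0 M counts on nuclear genes, with a median of 65.4 M, so that 3 counts, taken as the limit of detection, lay between 0.0357 and 0.0695 CPM, that is, counts scaled to a common library total. All levels below are CPM scaled by TMM, a normalisation that assumes most genes keep their level. Replicate 1 of WT at 13 DAP stood apart, with 46.7% of its counts on ribosomal RNA genes, against at most 16.3% in the other 17 libraries. Counts of calls in the comparisons with 13 DAP, and those values that change a call, are also given without it. The *MYB107* transcript was at 34.3 ± 6.36 CPM in WT at 11 DAP and 3.01 ± 0.752 in the mutant (SD, n = 3). Of 10 marker genes of the embryo, which dissection should remove, WUS and CUC2 had no count and STM, CLV3, WOX5, PLT1 and PLT2 stayed under 1 CPM in each group mean, while CUC1, SCR and SHR were detected. Summed over the 10, embryo markers lay between 29.8 and 54.2 CPM in all 18 libraries. In such whole tissue, fewer cells of a type and less RNA per cell cannot be told apart.

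Transcripts of the 46 genes made up 1.24% of nuclear counts in WT at 11 DAP and 0.421% at 13 DAP (means, n = 3). Without replicate 1 of 13 DAP, the library rich in ribosomal RNA, the latter was 0.466%. These shares are of unscaled counts, with ribosomal RNA genes in the total. In scaled levels, the 43 members with at least 100 counts in some library summed to 11767 ± 855 CPM in WT at 11 DAP, 12419.5 ± 1663 in *myb107-2* at 11 DAP, 9079 ± 2084 after 6 h of cold, 8346 ± 603 in WT and 8198 ± 971 in *myb107-2* at 11 DAP+Cold, and 5759 ± 1031 in WT at 13 DAP (SD, n = 3). The sum was therefore highest in both genotypes at 11 DAP and lowest at 13 DAP, where no library overlapped those of 11 DAP or of 11 DAP+Cold. For the typical member, the median difference of log2(CPM + 0.5) from the WT 11 DAP mean was -0.15, -0.69 and -0.67 in the 3 libraries of 6 h of cold, -1.02, -0.84 and -0.82 in WT and -0.76, -0.91 and -1.04 in *myb107-2* at 11 DAP+Cold, and -0.91, -1.06 and -1.46 at 13 DAP. Replicate 1 of the 6 h group thus stayed near the warm level while the other libraries of that group had dropped. The 3 libraries of 13 DAP overlapped the 6 libraries of 11 DAP+Cold in this median although they did not in the sum, in which abundant genes such as RBCS1A (AT1G67090) and LHCB1.3 weigh more.

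**Figure D1:**
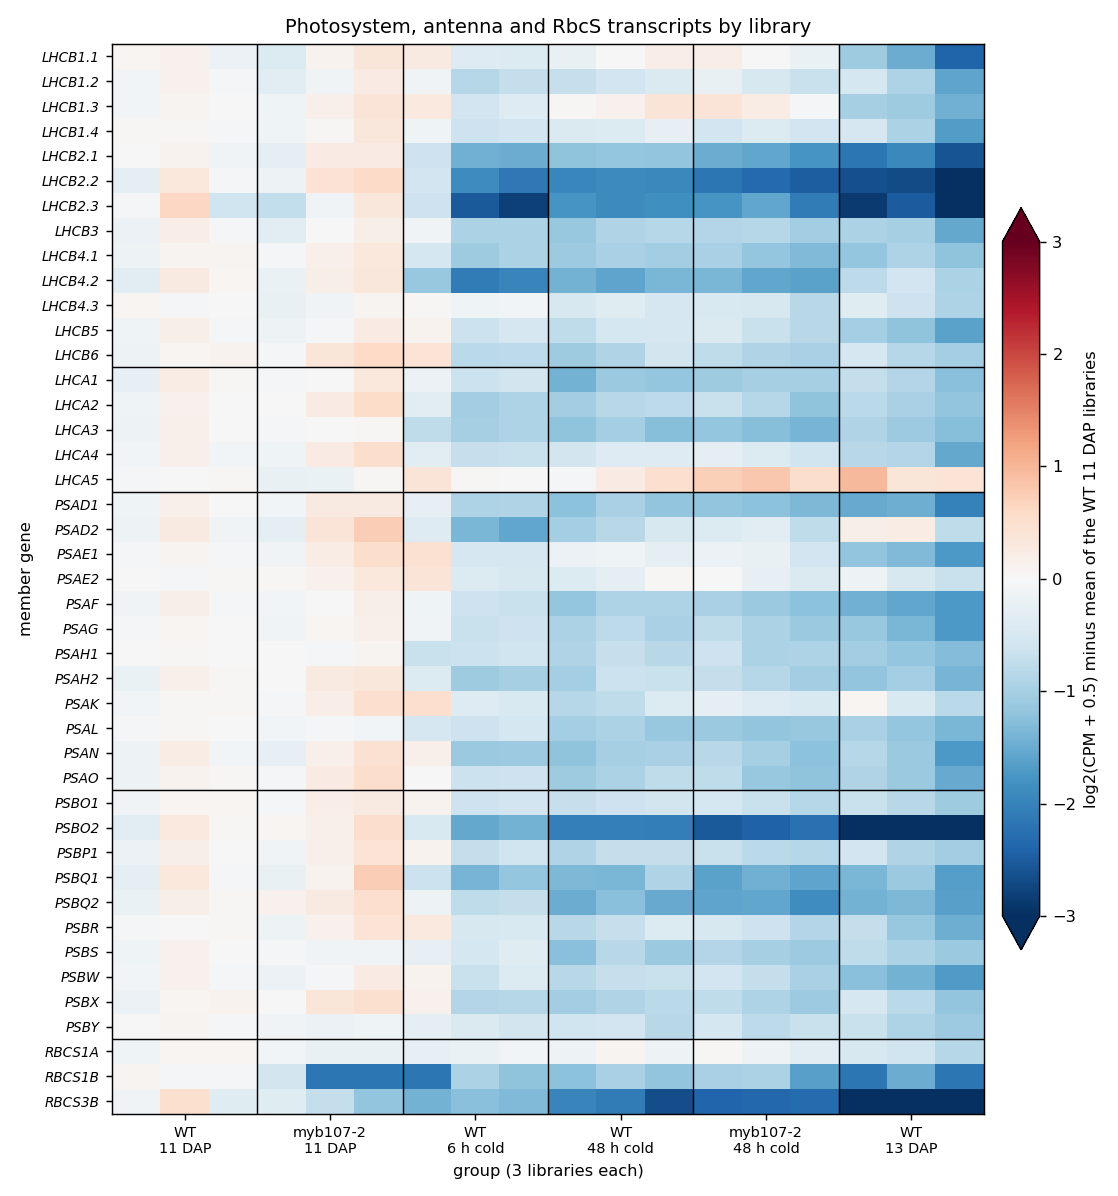
Heat map of 43 member genes (rows, ordered as LHCB, LHCA, PSA, PSB and RBCS) in the 18 libraries (columns, 3 per group), coloured by log2(CPM + 0.5) minus the mean of the 3 WT 11 DAP libraries, with values beyond 3 in size drawn in the end colour. Most rows are blue from 6 h of cold onward except in replicate 1 of the 6 h group, LHCB1.1 and LHCB1.3 stay pale in 48 h of cold and turn blue at 13 DAP, and LHCA5 turns red.

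Levels differed widely among the members. Per kb of exon and averaged over the 18 libraries, RBCS1A, the main small subunit gene, stood at 1182 CPM per kb and LHCB1.3, a gene of the major photosystem II antenna, at 1006. They were followed by PSBR (AT1G79040), a small lumenal photosystem II protein, at 498, LHCB1.1 at 475 and PSBO1 (AT5G66570), the manganese-stabilising protein of the water-splitting complex, at 339 CPM per kb. LHCA4 (AT3G47470, 233) was the highest of the photosystem I antenna genes and PSAG (AT1G55670, 229) the highest of the photosystem I subunits, both in CPM per kb. At the low end of each subgroup lay LHCB2.3 (4.42, after LHCB1.5, which had no count), LHCA6 (AT1G19150, 0.0839), PSAH2 (AT1G52230, 51.6), PSBQ1 (AT4G21280, 19.7) and RBCS2B (AT5G38420, 0.04 CPM per kb). LHCA6, which in leaves links photosystem I to the NDH complex, never exceeded 49 counts and had 0 counts in all 9 libraries of 11 DAP+Cold and 13 DAP. RBCS2B never exceeded 21 counts. For these 2 genes no fold change is given.

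No member was called between *myb107-2* and WT. A call required an adjusted p of at most 0.05 in edgeR's quasi-likelihood test, Benjamini-Hochberg adjusted over all genes, together with a change of 1 or more on the log2 scale. At 11 DAP, 0 of 45 members were called, where 0.683% of all 26068 genes tested were, and at 11 DAP+Cold 0 of 45, where 1.46% of all genes were. DESeq2 also called none, and 1 member at 11 DAP and 4 at 11 DAP+Cold had an unadjusted p under 0.05. The median log2 fold change over the members was 0.08 and -0.06, beside 0.00 over all genes in both. At 11 DAP the extremes were LHCB6 (AT1G15820, a minor antenna protein, CP24) at 0.31 ± 0.17 and LHCB2.3 at -0.21 ± 0.30, LHCA2 (AT3G61470) at 0.27 ± 0.16 and LHCA5 (AT1G45474) at -0.14 ± 0.15, and PSAD2 (AT1G03130) at 0.31 ± 0.22 and PSAL (AT4G12800) at -0.10 ± 0.10 (log2 fold change ± SE). PSBQ2 (AT4G05180), of the oxygen-evolving complex, was at 0.29 ± 0.14, PSBY (AT1G67740) at -0.15 ± 0.11 and RBCS1A at -0.19 ± 0.13. The smallest adjusted p in edgeR was 0.34, for RBCS3B (AT5G38410), which read 5.51, 8.52 and 4.54 CPM in WT and 4.53, 3.49 and 2.36 CPM in *myb107-2*. The highest mutant library was level with the lowest WT library. RBCS1B (AT5G38430) read 1.87, 1.64 and 1.69 CPM in WT and 1.03, 0 and 0 CPM in *myb107-2*, a log2 fold change of -2.34 ± 1.35 (edgeR, adjusted p = 0.54). Its WT libraries were all higher, but 2 mutant libraries at 0 set the fitted value, and without mutant replicate 1 the gene was the 1 member called lower in the mutant.

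At 11 DAP+Cold the most positive and most negative log2 fold changes of *myb107-2* over WT were 0.10 ± 0.16 for LHCB1.2 (AT1G29910) and -0.44 ± 0.14 for LHCB2.1, 0.43 ± 0.15 for LHCA5 and -0.12 ± 0.12 for LHCA3 (AT1G61520), and 0.27 ± 0.15 for PSAK (AT1G30380) and -0.14 ± 0.13 for PSAD1 (AT4G02770). PSBS (AT1G44575), which triggers the harmless release of excess light energy, was at 0.05 ± 0.12, PSBQ1 at -0.38 ± 0.22, RBCS1B at -0.07 ± 1.303 and RBCS3B at -0.25 ± 0.37. LHCB2.1 had the smallest adjusted p in edgeR, 0.17, with 106, 110.3 and 109 CPM in WT and 87.1, 83.6 and 72.0 CPM in the mutant. All 3 mutant libraries were lower, without overlap, by less than the fold minimum. The genotype effect itself was not shown to differ between the temperatures for any member: 0 of 45 were called at an adjusted p of 0.05, where 0.261% of all genes were, DESeq2 called 0, and 5 had an unadjusted p under 0.05. Differences of the log2 fold change, cold minus warm, ranged from -0.69 ± 0.26 for LHCB2.2 to 0.24 ± 0.44 for LHCB2.3 in LHCB, from -0.29 ± 0.23 for LHCA2 to 0.57 ± 0.22 for LHCA5 in LHCA, from -0.36 ± 0.22 for PSAE1 (AT4G28750) to 0.05 ± 0.21 for PSAK in PSA and from -0.61 ± 0.31 for PSBQ1 to 0.16 ± 0.18 for PSBS in PSB. RBCS1A stood at 0.11 ± 0.19 and RBCS1B at 2.27 ± 1.86, and without mutant replicate 1 of 11 DAP RBCS1B was the 1 member called.

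**Figure D2:**
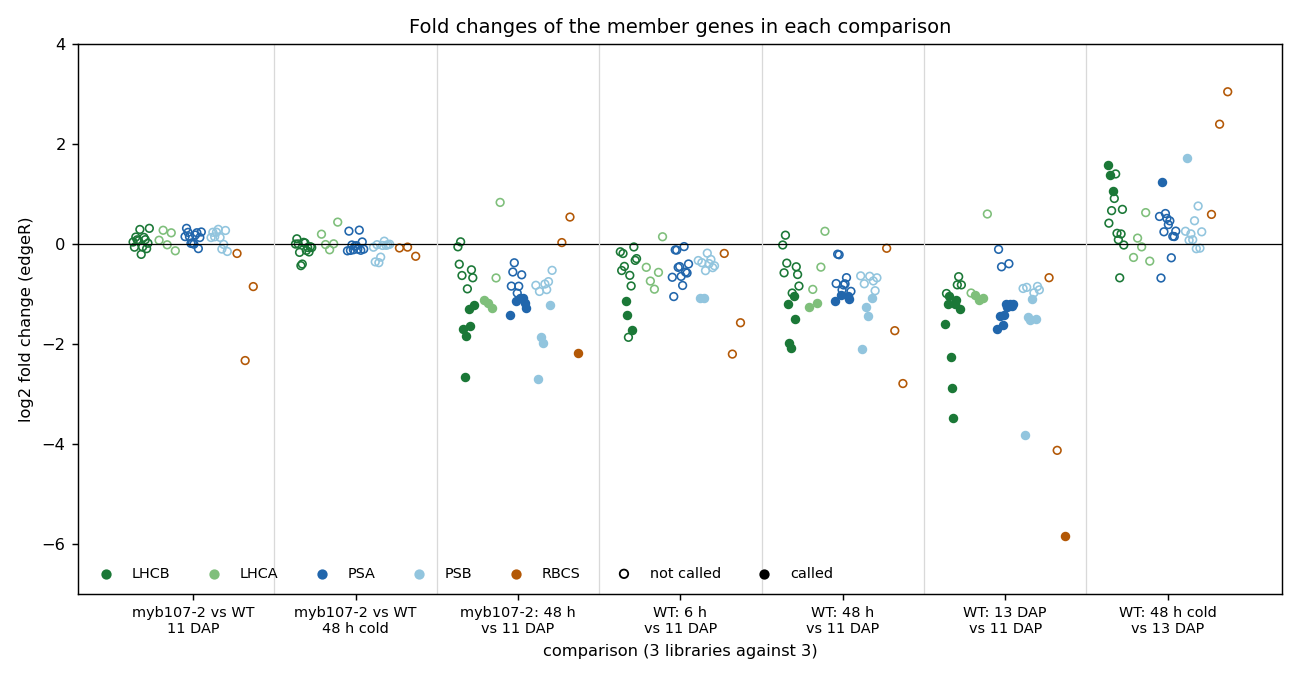
Log2 fold change of 43 member genes (vertical axis, edgeR) in 7 comparisons of 3 libraries against 3 (horizontal axis), with each point a gene, coloured by subgroup and filled where called. The 2 genotype comparisons scatter around 0 with no filled point, the comparisons with 11 DAP run mostly below 0, and 5 points are filled above 0 between 48 h of cold and 13 DAP.

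The broadest change was between 11 and 13 DAP. It is called the change with age, although clock genes and tissue markers also differed between these groups. Between 11 and 13 DAP at 22 °C, 27 of 45 members fell and none rose, where 4.74% of all 26245 genes tested fell and 4.27% rose. Among genes with a mean of at least 10 CPM the share that fell was 6.01%. Without the fold minimum 37 members fell, where 8.01% of all genes did. DESeq2 called 27 lower and 0 higher, and 1 member had a positive log2 fold change with an unadjusted p under 0.05. The median log2 fold change of the members was -1.20, beside 0.00 over all genes. By subgroup, 9 of 13 LHCB genes with a count, 3 of 6 LHCA, 9 of 12 PSA, 5 of 10 PSB and 1 of 4 RBCS genes fell. Leaving out replicate 1 of 13 DAP, the library rich in ribosomal RNA, 33 members fell with a median of -1.28, and leaving out replicate 3 of 13 DAP 22 fell. No label says that libraries with the same replicate number were paired. With the replicate as a block 28 fell.

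Among the members called by edgeR, and outside the barely expressed RBCS3B, the steepest fall was in photosystem II. PSBO2 (AT3G50820), the minor copy of the manganese-stabilising protein, went from 67.7, 102 and 86.0 CPM at 11 DAP to 4.96, 7.84 and 5.71 CPM at 13 DAP, a log2 fold change of -3.82 ± 0.29 (edgeR, adjusted p = 3.4e-06). No library of one age came near those of the other. Its major copy PSBO1 read 599, 678 and 670.4 CPM and then 405, 362 and 310.4 CPM, also without overlap, with a log2 fold change of -0.89 ± 0.19 that did not reach the fold minimum (edgeR, adjusted p = 0.0052). PSBW (AT2G30570) at -1.50, PSBQ2 at -1.52, PSBQ1 at -1.46 and PSBR at -1.11 (log2 fold change) fell too. PSBX (AT2G06520), a small core subunit, changed least in this subgroup among those past the adjusted p, with 225, 269 and 278 CPM at 11 DAP, 179.5, 146 and 113 CPM at 13 DAP and a log2 fold change of -0.85 ± 0.25. The other 3, PSBP1 (AT1G06680), PSBS and PSBY, lay between -0.98 and -0.87.

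In the photosystem II antenna, the LHCB2 genes fell most. LHCB2.2 read 102, 156 and 121 CPM at 11 DAP and 19.6, 18.9 and 14.3 CPM at 13 DAP, a log2 fold change of -2.89 ± 0.34 (edgeR, adjusted p = 6.4e-05). LHCB2.1 went from 247, 267 and 228 to 54.5, 64.1 and 40.7 CPM, with -2.26 ± 0.23 and an adjusted p of 1.9e-05, and the low LHCB2.3 from 13.2, 20.8 and 8.72 to 1.41, 1.98 and 0.562 CPM, with -3.48 ± 0.65 and an adjusted p of 0.002 (edgeR). For all 3 genes every 13 DAP library lay below every 11 DAP library. LHCB2.1 and LHCB2.2 shared 23.6% and 29.5% of their 50-base words, so reads may have moved between them, while LHCB2.3 shared none but overlaps AT3G27700 on the other strand. LHCB1.1 and LHCB1.3, the abundant genes of the major trimeric antenna, fell by less, with log2 fold changes of -1.60 ± 0.29 and -1.20 ± 0.22. The least changed was LHCB4.3 (AT2G40100), an isoform of the minor antenna CP29, at -0.66 ± 0.15, with 207, 192 and 196 CPM and 155, 129 and 104 CPM, without overlap. LHCB3 (AT5G54270), LHCB4.1 (AT5G01530), LHCB5 (AT4G10340, CP26) and LHCB1.4 (AT2G34430) also fell, with log2 fold changes between -1.30 and -1.05.

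Of the photosystem I subunits, the 9 that fell spanned log2 fold changes from -1.70 ± 0.21 for PSAD1, on the ferredoxin side, to -1.20 for PSAL, which helps dock antenna to photosystem I. The 3 that did not pass were PSAK at -0.40 ± 0.26, PSAE2 (AT2G20260) at -0.46 ± 0.22 and PSAD2 at -0.11 ± 0.31. PSAD2 read 57.3, 76.5 and 59.1 CPM at 11 DAP and 72.1, 74.4 and 37.2 CPM at 13 DAP, and the groups overlapped. Among the antenna genes of photosystem I, LHCA3 at -1.13 ± 0.14, LHCA4 at -1.09 ± 0.19 and LHCA2 at -1.03 ± 0.19 fell and LHCA1 (AT3G54890) stood at -0.98 ± 0.18 (log2 fold change). Without replicate 1 of 13 DAP the added calls were LHCA1, LHCB1.2, PSBP1, PSBS, PSBX and PSBY, led by LHCB1.2 at a log2 fold change of -1.24. LHCA5, which like LHCA6 joins photosystem I to the NDH complex, was the one member with a positive value, 0.60 ± 0.20, with 10.07, 10.2 and 10.5 CPM at 11 DAP and 20.8, 13.3 and 13.9 CPM at 13 DAP. The 13 DAP libraries were all higher, and the test did not pass (edgeR, adjusted p = 0.068).

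RBCS1A carried nearly all small subunit transcripts. It read 1556, 1785 and 1783 CPM at 11 DAP and 1218, 1127 and 946 CPM at 13 DAP, a log2 fold change of -0.68 ± 0.16 that passed the adjusted p (0.01, edgeR) and not the fold minimum. The groups did not overlap. RBCS3B, which shares 16.6% of its 50-base words with RBCS1B and RBCS2B, went from 5.51, 8.52 and 4.54 CPM to 0, 0.309 and 0 CPM, and its fitted log2 fold change of -5.84 ± 1.03 (edgeR, adjusted p = 0.0013) rests on 2 libraries at 0. RBCS1B, with 0, 0.291 and 0 CPM at 13 DAP, was not called by edgeR and was by DESeq2.

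After 48 h of cold, 15 of 45 members were lower in WT than at 11 DAP and none was higher, where 2.29% of all genes fell and 2.38% rose. Among genes with a mean of at least 10 CPM the share that fell was 2.81%. Without the fold minimum 25 members fell, where 4.26% of all genes did. DESeq2 called 16 lower and 0 higher, and edgeR found 0 higher also at an unadjusted p under 0.05. The median log2 fold change of the members was -0.91, beside 0.00 over all genes. These seeds were also 48 h older than those of 11 DAP. The 11 DAP libraries are the same as in the comparison with 13 DAP, so both sets of values are given side by side rather than related to each other. The 15 were 5 LHCB, 2 LHCA, 4 PSA and 4 PSB genes, and no RBCS gene. PSBO2 was again the most changed of its subgroup, at 20.1, 20.1 and 19.6 CPM, a log2 fold change of -2.11 ± 0.27 (edgeR, adjusted p = 0.00049), and PSBO1 the least, at 399.5, 423 and 439 CPM and -0.64 ± 0.19. LHCB2.3 at -2.08 ± 0.60 and LHCB2.2 at -1.98 ± 0.33 had the most negative values of the antenna, LHCA1 at -1.26 ± 0.19 and LHCA3 at -1.19 ± 0.14 the photosystem I antenna and PSAD1 at -1.15 ± 0.20 its subunits. The LHCB2.3 call was lost with 2 other scalings, with edgeR's filter on low counts, without the ribosomal RNA genes and in each of the 6 fits that left out 1 library, and was held in DESeq2. The least negative of the photosystem I subunits was PSAE1, at -0.21 ± 0.23. LHCA5 stood at 0.25 ± 0.20, RBCS1A at -0.09 ± 0.16 with 1538, 1804 and 1526 CPM, and RBCS3B at -2.80 ± 0.86 (edgeR, adjusted p = 0.064), a value that DESeq2 called.

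LHCB1.1 and LHCB1.3 were not called lower after 48 h of cold. LHCB1.3 read 1222, 1372 and 1291 CPM at 11 DAP, 1323, 1409 and 1698 CPM after 48 h of cold and 644, 619 and 475 CPM at 13 DAP. LHCB1.1 read 732, 775 and 621, then 609, 705 and 805 and then 336, 253 and 134 CPM in the same groups. For both genes the 48 h libraries overlapped those of 11 DAP, with log2 fold changes of 0.17 ± 0.22 and -0.02 ± 0.28 (edgeR, adjusted p = 0.72 and 1), and every 48 h library was above every 13 DAP library. LHCB1.2, in the same cluster on chromosome 1, read 466, 539.5 and 468 CPM at 11 DAP, 305, 329 and 362 CPM after 48 h of cold and 338, 258 and 164 CPM at 13 DAP, and its 48 h and 13 DAP groups overlapped. These genes share between 10.7% and 20.5% of their 50-base words, so part of a difference between them may be lost or exchanged in counting.

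Comparing 48 h of cold with 13 DAP sets cold-treated seeds against seeds of the same age left at 22 °C. Here 5 of 45 members were higher in the cold and none was lower, where 3.51% of all genes were higher and 3.15% lower. Among genes with a mean of at least 10 CPM the share higher in the cold was 4.83%. Without the fold minimum 10 members were higher, where 6.22% of all genes were. DESeq2 called 6 higher and 0 lower, and 2 members had a negative log2 fold change with an unadjusted p under 0.05. The median over the members was 0.25, beside 0.00 over all genes. The 5 were PSBO2 at 1.71 ± 0.27, LHCB1.1 at 1.58 ± 0.29, LHCB1.3 at 1.37 ± 0.22, PSAE1 at 1.23 ± 0.23 and LHCB2.1 at 1.05 ± 0.22 (log2 fold change ± SE), with adjusted p in edgeR between 0.0011 and 0.0072. Without replicate 1 of 13 DAP all 5 were still called, from 1.87 for LHCB1.1 to 1.05 for LHCB2.1, and the median was 0.38. PSAE1, on the ferredoxin side of photosystem I, read 114, 125 and 115 CPM at 11 DAP, 104, 108 and 98.5 CPM after 48 h of cold and 52.1, 47.1 and 35.7 CPM at 13 DAP, and only the last of these groups lay far below the others. On the negative side stood LHCB4.2 (AT3G08940) at -0.68 ± 0.23, PSAD2 at -0.68 ± 0.31, LHCA5 at -0.35 ± 0.20 and PSBS at -0.10 ± 0.15, none of them past the adjusted p. LHCA4 at 0.63 ± 0.19 and RBCS1A at 0.59 ± 0.16 passed it (0.046 and 0.03, edgeR) without the fold minimum. RBCS3B, at 3.04 ± 0.94, had an adjusted p of 0.055 in edgeR and was called by DESeq2.

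**Figure D3:**
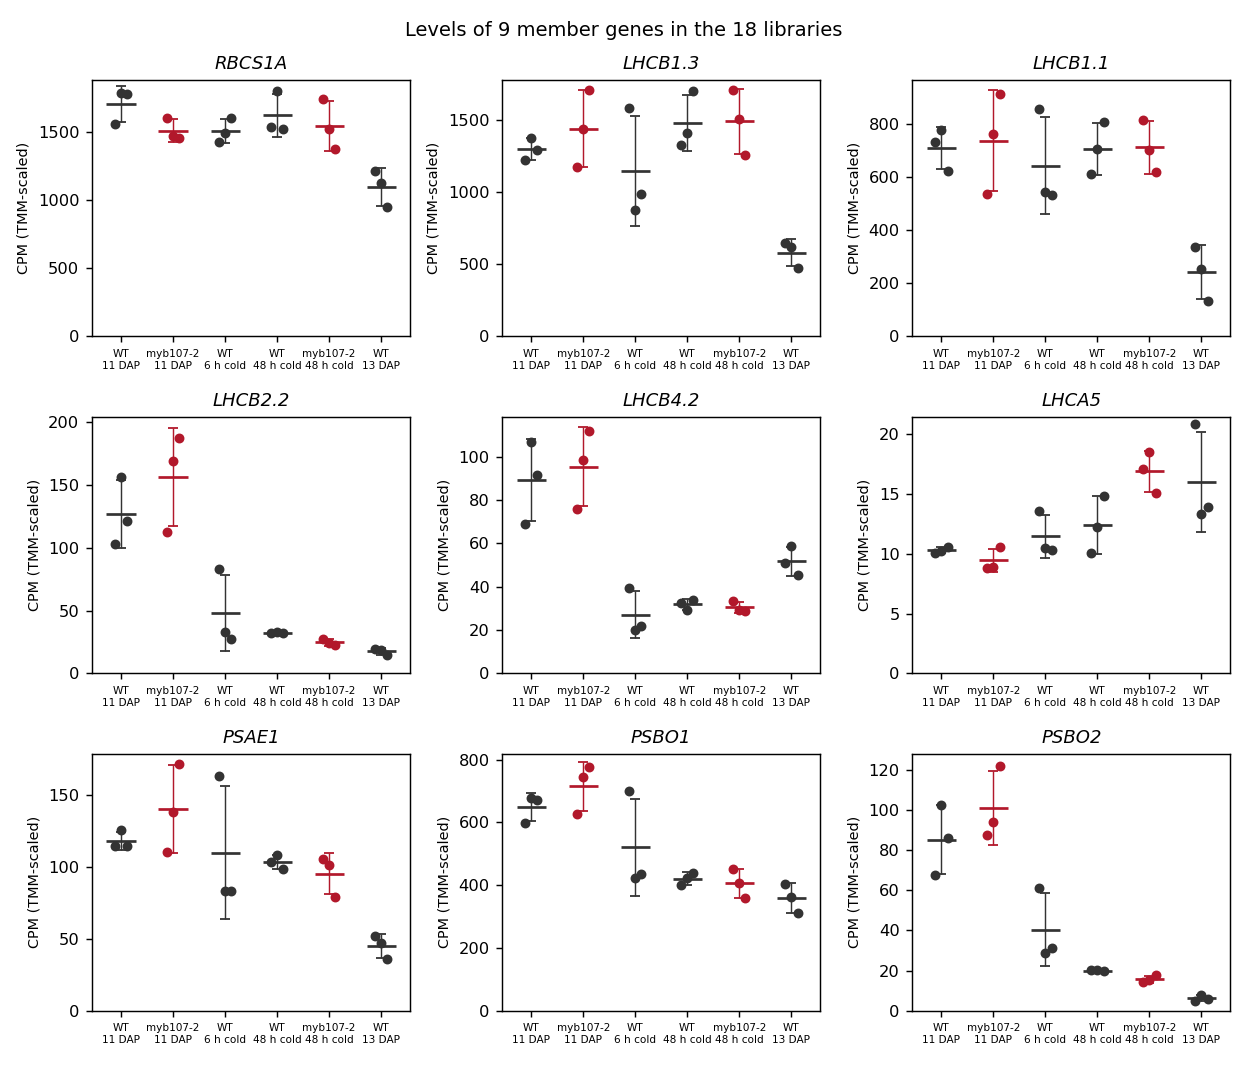
TMM-scaled CPM (vertical axes, starting at 0) of 9 member genes in the 18 libraries by group (horizontal axes), with points for libraries, lines and bars for the mean ± SD of 3 libraries, and *myb107-2* in red. RBCS1A, LHCB1.3, LHCB1.1 and PSAE1 are lowest at 13 DAP, LHCB2.2 and PSBO2 are already low in the cold, LHCB4.2 is low in all cold groups, and LHCA5 is highest in *myb107-2* after 48 h of cold and in WT at 13 DAP.

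After 6 h of cold, 5 members were lower in WT and none was higher, where 0.659% of all genes fell and 0.423% rose. Among genes with a mean of at least 10 CPM the share that fell was 1.12%. Without the fold minimum 10 members fell, where 1.24% of all genes did. DESeq2 called 7 lower and 0 higher, and no member was higher at an unadjusted p under 0.05. The median log2 fold change was -0.53, beside -0.01 over all genes. LHCB4.2, an isoform of CP29, showed the clearest change, from 69.0, 107 and 91.6 CPM to 39.6, 19.96 and 21.8 CPM, a log2 fold change of -1.73 ± 0.24 (edgeR, adjusted p = 0.0033). It was 32.6, 29.1 and 33.7 CPM after 48 h and 51.0, 58.8 and 45.5 CPM at 13 DAP, so that every WT cold library lay below every 13 DAP library. The other 4 were LHCB2.2 at -1.42 ± 0.33, LHCB2.1 at -1.15 ± 0.22, PSBO2 at -1.09 ± 0.26 and PSBQ1 at -1.09 ± 0.23. LHCB2.3 had the most negative value of the antenna, -1.87 ± 0.60, and did not pass (edgeR, adjusted p = 0.14). LHCB4.3 was at -0.06 ± 0.15, LHCA3 at -0.91 ± 0.14, LHCA5 at 0.14 ± 0.20, PSAD2 at -1.06 ± 0.31, PSAK at -0.05 ± 0.26, PSBR at -0.19 ± 0.23, RBCS1A at -0.19 ± 0.16 and RBCS1B at -2.21 ± 1.46.

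This count rested on single libraries. Without replicate 1 of the 6 h group, which stayed near the warm level, 10 members were lower, the added ones being PSAD2, PSAH2, PSAN, LHCB2.3 and LHCB4.1. Without replicate 2 or 3 of either group only LHCB4.2 was called, and without replicate 1 of 11 DAP 3 members were. LHCB4.2 was called in each of these settings. The PSBO2 call was lost in 5 of the 6 fits that left out 1 library, and also with 2 other scalings, with edgeR's filter on low counts, without the ribosomal RNA genes and with the replicate as a block. That of LHCB2.2 was lost with upper-quartile scaling and that of PSBQ1 with the block. PSAE1 shows the split plainly, with 163, 83.5 and 83.0 CPM in the 3 libraries of 6 h, and LHCB6 likewise, with 444, 190.4 and 195 CPM beside 301, 349 and 358 CPM at 11 DAP. By contrast, PSAH1 (AT3G16140), a subunit that helps dock antenna to photosystem I, read 121, 125 and 122 CPM and then 77.2, 78.4 and 81.2 CPM, with no library apart, a log2 fold change of -0.65 ± 0.12 (edgeR, adjusted p = 0.015).

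In *myb107-2*, 48 h of cold gave 20 of 45 members lower and none higher than at 11 DAP, where 3.45% of all genes fell and 3.51% rose. Among genes with a mean of at least 10 CPM the share that fell was 3.55%. Without the fold minimum 36 members fell, where 8.36% of all genes did. DESeq2 called the same number, 20, lower and 0 higher, and 1 member was higher at an unadjusted p under 0.05. The median log2 fold change of the members was -0.95, beside 0.00 over all genes. PSBO2 again led, at 87.6, 94.0 and 122 CPM at 11 DAP and 14.2, 15.3 and 17.5 CPM at 11 DAP+Cold, a log2 fold change of -2.70 ± 0.17 (edgeR, adjusted p = 3.9e-07), followed by LHCB2.2 at -2.67 ± 0.19. LHCA3 at -1.28 ± 0.12 and PSAD1 at -1.43 ± 0.13 were the most negative of the photosystem I antenna and subunits, and RBCS3B at -2.18 ± 0.37 of the RBCS genes. At the other end, LHCB1.3 stood at 0.04 ± 0.16, PSAE2 at -0.38 ± 0.14, PSBY at -0.53 ± 0.11, RBCS1A at 0.03 ± 0.13 and RBCS1B at 0.54 ± 1.31. LHCB1.3 read 1174, 1436 and 1705 CPM before and 1704, 1508 and 1253 CPM after the cold, and LHCB1.1 534, 760.0 and 912 and 814, 701 and 616 CPM, with overlap in both. LHCA5 went from 8.80, 8.91 and 10.6 to 17.1, 18.5 and 15.0 CPM, past the adjusted p in edgeR (0.0018) at a log2 fold change of 0.83 ± 0.16, under the fold minimum. Cold and age cannot be told apart here, since *myb107-2* was not sampled at 13 DAP. The larger number of calls in the mutant than in WT was not a call on the difference between genotypes, for which edgeR called none. The 2 counts also come from different fits, with a median SE over 43 members of 0.148 in *myb107-2* and 0.209 in WT.

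Where a protein has more than 1 gene, the shares of the copies, taken as CPM per kb within the pair or family, differed between groups for some and not for others. PSBO2 gave 12.9% ± 1.65 of PSBO transcripts in WT at 11 DAP, 7.92% ± 0.995 after 6 h and 5.12% ± 0.285 after 48 h of cold, and 1.94% ± 0.521 at 13 DAP (SD, n = 3), with no overlap between these 4 groups. In *myb107-2* it gave 13.8% ± 1.33 at 11 DAP and 4.27% ± 0.915 at 11 DAP+Cold, overlapping the WT shares of the same condition. PSAD2 went from 27.7% ± 1.43 of PSAD in WT at 11 DAP to 32.9% ± 4.53 after 48 h of cold and 52.9% ± 4.31 at 13 DAP, so that the minor copy became level with the major one. PSAD2 overlaps another gene on its strand, AT1G03140, and part of its counts could belong to that gene. PSAE1 kept 49.4% ± 4.86 in the cold, beside 49.0% ± 1.77 at 11 DAP, and had 32.8% ± 1.78 at 13 DAP. LHCB4.2 went from 15.3% ± 2.32 of LHCB4 at 11 DAP to 6.998% ± 1.69 after 6 h and 10.04% ± 1.06 after 48 h of cold, and had 16.4% ± 1.01 at 13 DAP. In contrast, PSAH1 held 56.7% ± 2.84, 56.3% ± 2.58 and 57.5% ± 2.72 of PSAH in WT at 11 DAP, 48 h of cold and 13 DAP, within the spread of the libraries. RBCS1A made up 99.6% of RBCS in WT at 11 DAP and more in each other group. The shares at 13 DAP without its replicate 1 were 2.22% for PSBO2, 51.6% for PSAD2, 33.3% for PSAE1 and 16.9% for LHCB4.2. These shares were not tested.

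**Figure D4:**
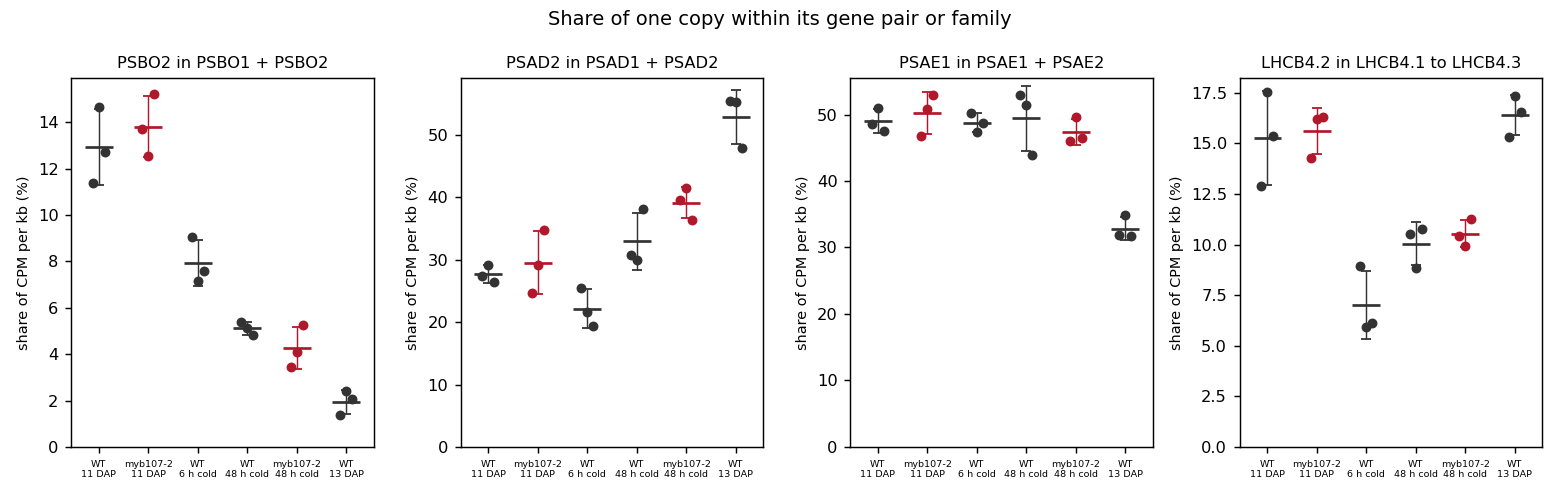
Share of CPM per kb (vertical axes, in percent, starting at 0) that PSBO2, PSAD2, PSAE1 and LHCB4.2 held within their gene pair or family in each library, by group (horizontal axes), with lines and bars for the mean ± SD of 3 libraries and *myb107-2* in red. The PSBO2 share steps down from 12.9% in WT at 11 DAP to 1.94% at 13 DAP, while the LHCB4.2 share is low only in the cold groups.

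LHCB1.5 (AT2G34420, chromosome 2, 14522524 to 14523568 of TAIR10.1, minus strand) had 0 counts in all 18 libraries. The annotation places a long noncoding RNA gene, AT2G08665, over it on the other strand, from 14522522 to 14523568, and that gene read 878, 890.3 and 824 CPM in WT at 11 DAP, 1210.1, 583 and 614 CPM after 6 h and 624, 672 and 891 CPM after 48 h of cold, and 623, 397 and 250.4 CPM at 13 DAP. In *myb107-2* it read 765, 1103 and 1370.4 CPM at 11 DAP and 724, 672 and 574 CPM at 11 DAP+Cold. Its log2 fold change was -1.07 ± 0.32 with age (edgeR, adjusted p = 0.04), -0.26 ± 0.32 with 48 h of cold (0.71) and 0.81 ± 0.32 between 48 h of cold and 13 DAP (0.14). Without replicate 1 of 13 DAP the last of these was 1.17, a call (edgeR, adjusted p = 0.034), and the value with age -1.44. LHCB1.5 shares 17.3% of its 50-base words with LHCB1.4, and AT2G34410 also reaches into the locus on the other strand. The libraries were made with a stranded kit, the strand setting of the counting is not given in the sources used here, and reads of the 2 genes cannot be told apart. Other members that overlap an annotated gene, mostly on the other strand, are LHCB1.3, LHCB2.3, LHCB3, LHCB4.2, LHCB6, LHCA4, LHCA5, PSAE1, PSAE2, PSAG, PSAH1, PSAH2, PSAN and PSBR, and, on the same strand, PSAD2 and PSBP1. The antisense gene was added to the lists after its values were seen and is not counted among the members.

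Other genes of the photosynthetic pathway, from lists of 9 electron transport and ATP synthase genes, 15 genes of the Calvin cycle and 18 of chlorophyll synthesis, were measured in the same fits. With age, 5 of 9, 4 of 15 and 4 of 18 fell and none rose, where 4.74% of all genes fell, with median log2 fold changes of -1.43, -0.81 and -0.82. FD1, a ferredoxin, at -1.75, CFBP1, the plastid fructose-bisphosphatase, at -2.07 and CHLH, a subunit of magnesium chelatase, at -1.73 had the smallest p of their lists. After 48 h of cold in WT 4 of 9, 1 of 15 and 1 of 18 fell, where 2.29% of all genes did, led by ATPC1 (the gamma subunit of ATP synthase) at -1.50, FBA2 (a plastid aldolase) at -1.15 and PORB (protochlorophyllide reductase) at -1.05, and in *myb107-2* 5 of 9, 0 of 15 and 3 of 18 fell, where 3.45% did, led by ATPC1 at -1.59 and CHLM (magnesium protoporphyrin methyltransferase) at -1.45. After 6 h of cold edgeR called none of them at the fold minimum, with 3, 1 and 2 lower past the adjusted p alone and 5, 5 and 10 at an unadjusted p under 0.05, and between the genotypes it called none at either temperature at the fold minimum, with 2, 3 and 1 under that unadjusted p in the warm and 2, 0 and 0 in the cold. FD1, at 152 CPM in WT and 96.3 CPM in the mutant at 11 DAP, passed the adjusted p alone, with a log2 fold change of -0.67 ± 0.14 (edgeR, adjusted p = 0.036). Compared with 13 DAP, 1 of 9, 1 of 15 and 1 of 18 were higher after 48 h of cold, FD2 at 1.26, CFBP1 at 1.103 and CHLH at 1.198, and none was lower, where 3.51% of all genes and 4.83% of those with a mean of at least 10 CPM were higher. Without replicate 1 of 13 DAP these counts were 2, 0 and 1, with FD1 added and CFBP1 lost, and those with age stayed at 5, 4 and 4, with GUN4 added and PORC lost in chlorophyll synthesis. ELIP1, an early light-induced protein that binds chlorophyll under stress, moved the other way. It read 158, 62.2 and 63.6 CPM in WT and 29.0, 27.2 and 33.9 CPM in *myb107-2* at 11 DAP and 378, 402 and 499 and 498, 404 and 393 CPM at 11 DAP+Cold, a log2 fold change of 2.15 ± 0.47 in WT and 3.84 ± 0.32 in the mutant (edgeR, adjusted p = 0.012 and 2.4e-06) and of -1.67 ± 0.29 for the mutant at 11 DAP (0.011). ELIP2 fell with age, at -2.02, and was higher after 48 h of cold than at 13 DAP, at 2.197. ELIP1 was called there too without replicate 1 of 13 DAP, at 2.13.

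Of the transcription factors known to drive these genes in leaves, GLK2 was the one GLK gene clearly detected, with 4.97 ± 1.00 CPM in WT at 11 DAP, 4.45 ± 0.572 and 4.72 ± 0.191 CPM after 6 and 48 h of cold and 4.44 ± 0.844 CPM at 13 DAP (SD, n = 3). GLK1, GNC and CGA1 stayed under 0.5 CPM in each group mean and were at 0 in all 6 libraries of 11 DAP+Cold. HY5, a regulator of light responses, read 10.4 ± 2.86 CPM in WT at 11 DAP and 18.4 ± 4.69 CPM at 13 DAP, which was not called (edgeR, adjusted p = 0.089, and 0.28 without replicate 1 of 13 DAP). In *myb107-2* HY5 had a mean of 9.80 CPM in the warm and 16.7 CPM after 48 h of cold, past the adjusted p without the fold minimum, at a log2 fold change of 0.76 ± 0.23 (edgeR, adjusted p = 0.037). At the fold minimum edgeR called none of the 5 regulators in any comparison, and at most 1 had an unadjusted p under 0.05.

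The hour of collection is not given in the sources used here, and clock genes differed between the groups. After 6 h of cold, PRR5 at 3.59, ELF4 at 3.75, GI at 1.37 and LUX at 1.34, genes that peak later in the day, were higher than at 11 DAP (log2 fold change), TOC1 stood at 0.89 and the morning genes CCA1 at -0.14 and LHY at -0.56. CCA1 and LHY were lower at 13 DAP than at 11 DAP, at -2.38 and -3.22, and lower at 11 DAP in the mutant than in WT, at -1.62 and -1.49, with PRR5 at 2.73, ELF4 at 2.74 and LUX at 1.91 higher at 13 DAP. After 48 h of cold in WT, PRR5 at 2.17, ELF4 at 2.19 and PRR9 at 1.15 were higher, while CCA1 and LHY stood at 0.83 and 0.34 and PRR7 at 0.22. Between 48 h of cold and 13 DAP, CCA1 at 3.202, LHY at 3.56 and PRR9 at 1.84 were higher in the cold, and without replicate 1 of 13 DAP LUX was also lower, at -1.03. In *myb107-2*, CCA1, LHY, PRR9, PRR5 and ELF4 were higher after 48 h of cold, at 1.95, 1.79, 1.67, 2.04 and 3.39. In *myb107-2* against WT at 11 DAP+Cold the clock genes lay between -0.50 and 0.49 and none was called by edgeR, 0 of them also at an unadjusted p under 0.05. The part of the hour of collection in the members' values was not tested.

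Tissue markers moved as well. The sum over 10 seed coat markers lay at 2596 to 2687 CPM in WT at 11 DAP, 1332 to 1984 after 6 h and 951 to 1803 after 48 h of cold, and 811 to 1429 CPM at 13 DAP, and in *myb107-2* it was 1711 to 2579 at 11 DAP and 1543 to 1769 CPM at 11 DAP+Cold. Most of this sum was TT10, a laccase-like gene that browns the coat, at 1864 CPM in WT at 11 DAP. Of the 10, 6 fell with age, where 4.74% of all genes did, with a median log2 fold change of -1.89. Without replicate 1 of 13 DAP 5 fell, and TT10 was no longer called. After 6 h of cold edgeR called 0, where 0.659% of all genes fell and 0.423% rose, and 2 had an unadjusted p under 0.05. After 48 h in WT 2 fell, TT2 at -1.49 and MUM4 at -1.57, where 2.29% of all genes did. In *myb107-2* 3 fell, where 3.45% of all genes did. TTG2 moved the other way in WT, from 17.7 to 26.4 CPM after 48 h, past the adjusted p alone (edgeR, adjusted p = 0.033). In *myb107-2* against WT at 11 DAP 2 were lower, where 0.533% of all genes were. After 48 h of cold in WT 4 were higher than at 13 DAP, where 3.51% of all genes were. All 10 were above 3 counts in some library at 11 DAP, with TT12, a transporter of tannin precursors, under 1 CPM. The sum over 5 endosperm markers, nearly all of it EPR1, an extensin-like gene of the endosperm, lay at 13407 to 18280.1 CPM in WT at 11 DAP, 6318 to 13707 after 6 h, 13899 to 22003 after 48 h of cold and 26548 to 30596 CPM at 13 DAP, with 10648 to 15921 and 18559 to 23797 CPM in *myb107-2*. EPR1 was not called in WT after 48 h of cold or with age. SUC5, a sucrose transporter, at -2.05 and -2.97, and ALE1, a subtilisin-like protease gene, at -2.24 and -4.41, fell in both comparisons (log2 fold change). ZOU, an endosperm transcription factor, read 17.4 CPM at 11 DAP, 22.8 CPM after 48 h of cold and 11.5 CPM at 13 DAP and reached the fold minimum in neither, passing the adjusted p with age alone (edgeR, adjusted p = 0.016). FWA was at 0 in all 3 libraries of WT at 11 DAP and at 0.188 CPM at 13 DAP. Of the 10 embryo markers none was called, and 1 was higher past the adjusted p alone in each of 3 comparisons. These were 48 h of cold against 11 DAP in WT (edgeR, adjusted p = 0.034) and in *myb107-2* (0.014), and against 13 DAP (0.0043). At that threshold 4.25%, 8.27% and 6.22% of all genes were higher. The part of tissue proportions in the members' values was not tested.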

How the data were processed

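RNA from dissected seed coat and endosperm was sequenced in 18 libraries made with a stranded mRNA kit. Per the labels and the methods of the paper, the authors trimmed reads with Trim Galore and Sickle, aligned them with HISAT2 and deposited counts per gene from StringTie. Versions, genome build and strand setting are not given in the sources used here. Counts were used as deposited, on 37861 nuclear genes. Rows of 22 genes, held as dates in 5 files, and non-nuclear genes, a median of 0.851% of counts, were left out.

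Levels are counts scaled by TMM to a common library total (CPM), and per kb they use the merged exons of the TAIR10.1 RefSeq annotation. Comparisons used edgeR 4.0.16 (glmQLFit and glmQLFTest with its default settings, R 4.3.3) without a filter, in 2 fits of 12 libraries, 1 of the 4 groups in which both genotypes were sampled and 1 of the 4 WT groups. The code was tried on simulated counts for the genotype comparison at 11 DAP and for WT at 13 against 11 DAP. Changes were placed only in genes above a minimum mean count, and the other comparisons were not simulated. Calls needed an adjusted p no larger than 0.05 with a change of 1 or more on the log2 scale, except the difference of genotype effects, called on the adjusted p. Alternatives were DESeq2 1.42.0, other scalings and filters, the replicate number as a block and each library left out. A newer edgeR method, and the values of other lists and shares without replicate 1 of 13 DAP, were added after seeing the data. Deviations of WT libraries with the same number correlated weakly between 11 and 13 DAP (0.21, 0.15 and 0.14 over 17363 genes). Such values do not establish a pairing, so the block was an alternative only.

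Members and lists were chosen with earlier results of these data known. Named were, in each subgroup, the members of highest and lowest level per kb and of most positive and most negative fold change in each comparison, and of the other lists the called gene with the smallest p, all regulators and all clock genes. Others are named as part of a range or for their level. Upstream windows are the 250 bases before each annotated RefSeq start.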

Additional observations from a re-analysis of the deposited data

Results flagged for a closer look

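The antisense gene AT2G08665, which lies over the LHCB1.5 gene and is outside the members, carried signal where LHCB1.5 itself had 0 counts in every library. It stood at 864 CPM (mean, n = 3) in WT at 11 DAP.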

How the results depend on the processing

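Of the 72 calls of a member in a comparison, 54 held in every setting that was run and 64 in every setting with all libraries, and none changed direction. Without the fold minimum, 10 members were lower after 6 h of cold, 25 after 48 h in WT and 36 in *myb107-2*, where 1 was also higher, and 10 were higher in 48 h of cold than at 13 DAP. The count after 6 h was 3 with upper-quartile scaling and 3 with the replicate as a block. Correlations of same-numbered libraries between WT at 11 DAP and after 48 h of cold were 0.07, 0.17 and 0.12. Outside these and the comparison of 11 with 13 DAP such correlations lay between -0.22 and 0.066. The lowest was for replicate 1 between 48 h of cold and 13 DAP in WT. Apart from the count after 6 h the replicate block moved no count of calls by over 1.5 times. With single libraries left out, the number of members lower ranged from 1 to 10 after 6 h, from 11 to 15 after 48 h in WT, from 19 to 24 in *myb107-2* and from 22 to 33 at 13 DAP, and the number higher in 48 h of cold than at 13 DAP from 4 to 6. Members higher after cold in *myb107-2* ranged from 0 to 1, members lower in *myb107-2* at 11 DAP from 0 to 1 and members with a differing genotype effect from 0 to 1, each time RBCS1B. Member medians ranged from -0.70 to -0.38 after 6 h, -0.96 to -0.84 after 48 h in WT, -1.07 to -0.90 in *myb107-2*, -1.28 to -1.06 at 13 DAP and 0.16 to 0.38 between 48 h of cold and 13 DAP. Between genotypes they ranged from -0.05 to 0.21 at 11 DAP and -0.15 to 0.02 at 11 DAP+Cold, and for the difference of the genotype effects from -0.23 to -0.02. With 3 libraries a group, differences under the fold minimum were often not resolved, and genes that share sequence or overlap others are less certain than the rest.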
